A study of Mus musculus with 4 samples.

Results

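The dystrophin and sarcoglycan complex was examined through 8 genes, Dmd, Dag1, Sgca, Sgcb, Sgcd, Sgce, Sntb1 and Dtna, in poly(A) RNA-Seq of mouse cardiac progenitor cells (CPCs). They were chosen by name, as rows of the transcript table carrying one of these symbols, and the row with the highest summed count was kept for each, giving 8 genes of 20701. The CPCs came from E14 Tg(Nkx2-5-EmGFP) embryonic stem cells, a line with a fluorescent reporter for the early cardiac factor Nkx2-5, and were collected at day 5 of differentiation by sorting for GFP. The control group consisted of 2 libraries without an Isl1 lesion, and the Isl1_KO group of 2 libraries from Isl1-/- cells made by CRISPR/Cas9 gene targeting. Both groups carried the reporter, passed the same GFP gate and had been maintained as stem cells on mitomycin-treated mouse embryonic fibroblasts. Different clones of each genotype were used, but the labels do not say which library came from which clone. The mutant cells are named as knockout in the titles and as shRNA knockdown lines in the design text, and the titles were followed here. The comparison asks how the complex was expressed in CPCs with and without Isl1, a LIM-homeodomain transcription factor of second heart field progenitors.

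The dystrophin-glycoprotein complex links the actin cytoskeleton of muscle cells, through the plasma membrane, to the extracellular matrix. Dystrophin (Dmd) binds actin and β-dystroglycan, dystroglycan (Dag1) binds laminin outside the cell, the sarcoglycans stabilise dystroglycan in the membrane, and syntrophins (Sntb1) and α-dystrobrevin (Dtna) attach signalling proteins to dystrophin. Loss of dystrophin or of α-, β- or δ-sarcoglycan causes muscular dystrophy, in several cases with cardiomyopathy. Several subunits have relatives with broader expression, among them utrophin (Utrn) for dystrophin, β-dystrobrevin (Dtnb) for α-dystrobrevin and ε-sarcoglycan (Sgce) for α-sarcoglycan (Sgca).

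Library totals over the kept rows ranged from 8821517 to 9147425 counts in the control group and from 11388333 to 13186109 in the Isl1_KO group, so that 3 counts, used here as the floor of detection, equalled 0.228 to 0.340 CPM, counts scaled to a common library size. Isl1 had control counts of 309 and 326 and Isl1_KO counts of 17 and 24, a log2 fold change of -4.39 (SE 0.21, adjusted p = 0.00277 in edgeR). The 2 control libraries were much closer to each other than the Isl1_KO libraries were, with chi-square statistics, divided by their degrees of freedom, of 1.13 against 17.7 over genes and a biological coefficient of variation of 1.29% against 16.4%. Nkx2-5, the gene behind the sorting reporter, was at 21.1 and 19.8 CPM in the control and 4.77 and 4.34 CPM in the Isl1_KO group. Its log2 fold change was -2.16 (SE 0.15, adjusted p = 0.00703 in edgeR), so cells passing the same gate differed in Nkx2-5 RNA. The summed level of 7 cardiac progenitor markers, Isl1 and Nkx2-5 included, was 707 and 719 CPM in the control and 307 and 282 CPM in the Isl1_KO group, and 5 of 7 passed the threshold as lower (1.94% of all genes tested did). All 7 cardiomyocyte markers passed it as lower, with sums of 1295 and 1379 CPM against 52.3 and 40.6 CPM. In the Isl1_KO group, smooth muscle markers summed to 2173 CPM in replicate 1 and 744 CPM in replicate 2 (controls, 2519 and 2526), and fibroblast or feeder markers to 1562 and 645 CPM (controls, 2444 and 2384), with no gene of either list called. Skeletal muscle markers summed to 0.795 CPM or less in each library, and Myod1 and Myf5 had no count. In such bulk samples, fewer cells of a type and less RNA per cell cannot be told apart.

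The sequences before 4 start sites are shown because they belong to Dmd, Dag1 and Sgca, genes with different levels in these cells. Separate levels for the full-length and short Dmd starts were not measured. RefSeq promoter windows of 5 of the 8 members were searched, in 7 windows, and no window of Dtna, Sgce or Sntb1 is reported here. Each 250-base stretch upstream of the start was placed on NCBIM37 (mm9) by an exact match. The first is the start of full-length muscle dystrophin, chrX:80193959-80194208 on the plus strand, with a CArG box and a MEF2 box in capitals. The second is the start of the short dystrophin transcripts inside the same gene, chrX:82293384-82293633 on the plus strand, the third the Dag1 start at chr9:108166147-108166396 on the minus strand, and the fourth the Sgca start at chr11:94837642-94837891 on the minus strand, all with CpG dinucleotides in capitals.
Dmd full-length start: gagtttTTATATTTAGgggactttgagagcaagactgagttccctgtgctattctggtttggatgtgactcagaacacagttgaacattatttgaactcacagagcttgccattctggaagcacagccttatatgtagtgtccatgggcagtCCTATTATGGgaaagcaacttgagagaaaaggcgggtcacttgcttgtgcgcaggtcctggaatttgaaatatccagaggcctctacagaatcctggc
Dmd short start: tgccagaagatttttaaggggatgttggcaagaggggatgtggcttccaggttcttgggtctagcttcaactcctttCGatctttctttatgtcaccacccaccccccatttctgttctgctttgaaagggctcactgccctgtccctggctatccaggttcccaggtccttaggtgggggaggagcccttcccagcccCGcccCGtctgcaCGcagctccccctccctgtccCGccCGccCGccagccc
Dag1: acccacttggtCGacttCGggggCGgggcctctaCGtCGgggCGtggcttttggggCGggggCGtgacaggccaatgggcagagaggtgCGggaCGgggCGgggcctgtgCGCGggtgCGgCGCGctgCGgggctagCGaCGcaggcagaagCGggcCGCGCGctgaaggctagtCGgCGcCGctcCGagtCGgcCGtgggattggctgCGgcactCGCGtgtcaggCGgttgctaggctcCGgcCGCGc
Sgca: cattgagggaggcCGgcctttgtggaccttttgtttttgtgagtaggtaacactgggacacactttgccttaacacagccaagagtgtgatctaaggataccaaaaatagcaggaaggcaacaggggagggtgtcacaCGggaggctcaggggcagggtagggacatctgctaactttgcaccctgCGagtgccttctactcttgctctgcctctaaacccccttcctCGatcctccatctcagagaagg
The muscle dystrophin window was 45.2% GC with 2 CpG dinucleotides, and the Sgca window 52.8% GC with 4. The short dystrophin window was 60% GC with 7 CpG dinucleotides, and the Dag1 window 74.8% GC with 36, while a second, overlapping Dag1 start had 67.6% GC with 21. The windows of Sgcb and of Sgcd, which had no count in any library, were similar to each other in GC content, at 58.4% with 14 and 58% with 9. Over 32851 mouse promoter windows of the same length, the median was 52.4% GC with 6 CpG dinucleotides. Searched on both strands, a CArG box, the motif of serum response factor, occurred in 1.47% of all windows and a MEF2 box, that of the MEF2 factors, in 2.92%, and of the 7 member windows only that of muscle dystrophin held either. None of the 7 windows contained TAATTA, a core of homeodomain motifs, or the GATA-factor motif GATAA, which occurred in 4.84% and 22.6% of all windows. The E-box CANNTG occurred in the muscle dystrophin, Dag1, Sgca and Sgcd windows and in 66.2% of all windows. These matches are descriptions of the letters, and binding was not measured in these data.

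Measured per transcript length, Dag1 and Sgce had the highest RNA levels of the 8 members in control CPCs. The protein make-up of the complex was not measured. Dag1 reached 28.2 ± 0.94 RPKM (SD, n = 2, with the RPKM values as deposited) and Sgce 22.0 ± 0.43 RPKM, while Sgcb, encoding β-sarcoglycan, followed at 4.37 ± 0.30 RPKM. Dag1 (chromosome 9, 108108286-108166255, minus strand, mm9) exceeded Sgcb 6.63- and 6.30-fold per length in the control libraries and 6.84- and 7.60-fold in the Isl1_KO libraries. Sgce (chromosome 6, 4624350-4697204, minus strand) exceeded Sgcb (chromosome 5, 74023988-74038983, minus strand) 5.37- and 4.73-fold in the control libraries. The other members were far below these 3 genes. Sntb1, the β1-syntrophin gene, stood at 0.485 ± 0.078 RPKM, Dmd at 0.370 ± 0.057 RPKM and Dtna at 0.30 ± 0.042 RPKM. The control libraries of Dmd (0.41 and 0.33) and Dtna (0.27 and 0.33) met at one value, so these neighbours were not separated by their spread, and the Dmd level depends on the row kept, as described below.

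The α- and δ-sarcoglycan genes, parts of the muscle complex, were at or next to the floor. Sgca, encoding α-sarcoglycan (chromosome 11, 94824105-94837641, minus strand), had 3 and 4 counts in the controls and 1 and 3 counts in the mutant libraries. Sgcd, encoding δ-sarcoglycan (chromosome 11, 46709755-47802471, minus strand), had 0 counts in all 4 libraries, which allows a level of up to 0.228 to 0.340 CPM by counting error alone. Sgcz, encoding ζ-sarcoglycan, also had no count in any library. Sarcospan (Sspn), a tetraspan partner of the sarcoglycans, had 6, 12, 10 and 3 counts in the order control 1, control 2, Isl1_KO 1 and Isl1_KO 2, and Cav3, the muscle caveolin, had none. An exon of Sspn overlaps another gene on the opposite strand, and since reads were counted without regard to strand, its few reads cannot be assigned. No exon of the 8 members overlaps another gene. The β- and ε-sarcoglycan genes were therefore clearly above the floor, and Sgca, Sgcd and Sgcz had 4 counts or fewer in every library.

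**Figure D1:**
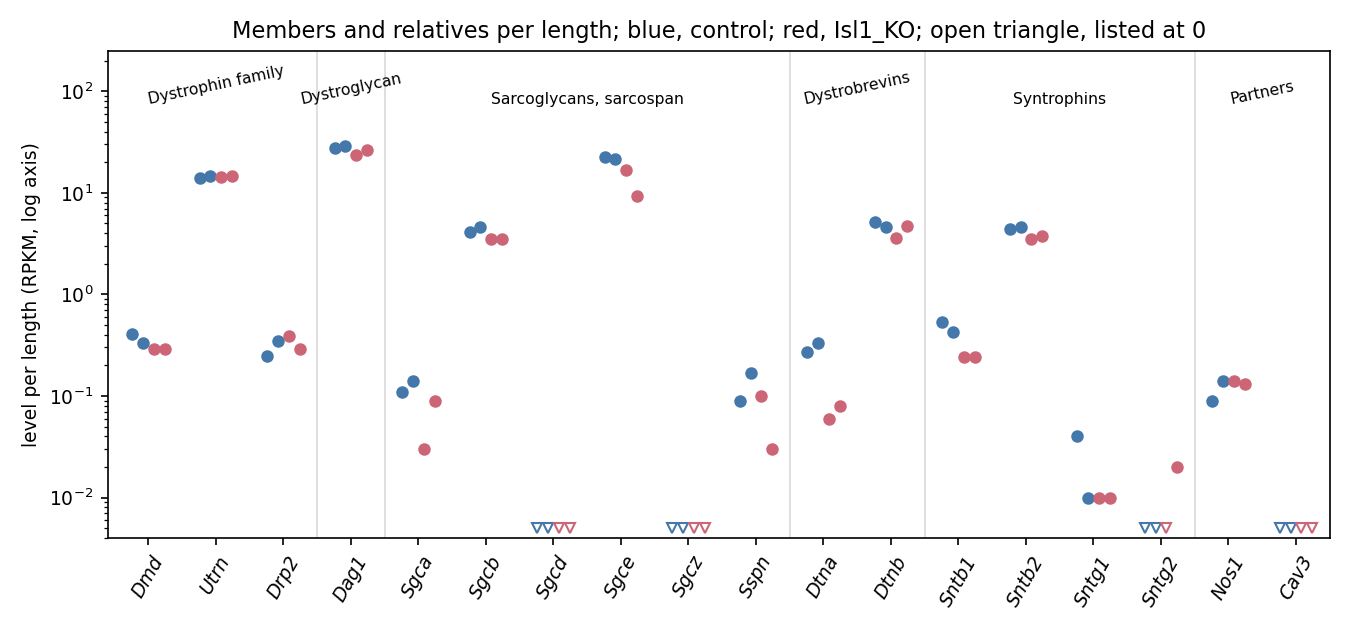
Level per transcript length (RPKM, log axis) of the 8 members and 10 related genes in each library, grouped by role, with control libraries in blue, Isl1_KO libraries in red and open triangles at the lower edge for libraries listed at 0. Dag1, Sgce and Utrn lie at 9.35 RPKM or above in every library, Sgcb, Dtnb and Sntb2 between 3.48 and 5.16 RPKM, and Sgcd, Sgcz and Cav3 have no count.

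The broadly expressed relatives exceeded the dystrophin-side members in every library. Utrn, at 14.3 ± 0.45 RPKM in the control group, exceeded Dmd 34.1- and 44.3-fold per length in the control and 49.8- and 50.9-fold in the Isl1_KO libraries. Dtnb exceeded Dtna 19.1- and 14.1-fold in the control and 59.2- and 59.0-fold in the Isl1_KO libraries, so the ratio was higher in both mutant libraries. Sntb2, encoding β2-syntrophin, exceeded Sntb1 8.24- and 10.6-fold in the control and 14.7- and 15.7-fold in the Isl1_KO libraries. These ratios rest on few reads of the rarer gene, from 24 to 30 in Dmd, from 8 to 33 in Dtna and from 10 to 18 in Sntb1. The ratio of Utrn to Dmd also depends on the Dmd row kept, and would be higher with the full-length row. Of the remaining dystrophin relatives, Drp2 was at 0.30 ± 0.071 RPKM in the control group while the γ-syntrophin genes Sntg1 and Sntg2 had at most 4 and 1 counts in a library.

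The Dmd counts held no excess of reads over the exons that only full-length dystrophin has. Dmd (chromosome X, 80194209-82451480, plus strand) has 6 rows in the table, and 5 of them had exactly the same counts, 29, 24, 30 and 26. One of the 5 is the full-length transcript of 13771 bases and the other 4 are 4478 to 4547 bases long, the size class of Dp71, a dystrophin without the actin-binding domain and most of the rod that is made from the internal start shown above. In the GENCODE annotation of mm9, the full-length model has 79 exons, of which 62 lie before the start of the short model and hold 9417 of its 14910 exonic bases, or 63.2%. Equal totals mean that the exons unique to the full-length row held as many reads as those unique to the short rows, which are only 47 bases in the short model compared. Had reads covered the full-length model evenly, the 109 reads counted over the 4 libraries would have been joined by 234 more upstream. Of 405 symbols with at least 10 counts and a row at most 0.5 times as long as their longest row, only Dmd had equal counts in all 4 libraries (0.247%). Poly(A) selection can favour the 3' end of long transcripts, and its part in these counts was not tested. The sixth row, of 1399 bases, had 4, 7, 3 and 9 counts. Because of the tie, the first of the 5 rows by identifier was kept (4516 bases), and the full-length row would give 0.13, 0.11, 0.09 and 0.10 RPKM in place of 0.41, 0.33, 0.29 and 0.29, with the same counts and the same test.

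**Figure D2:**
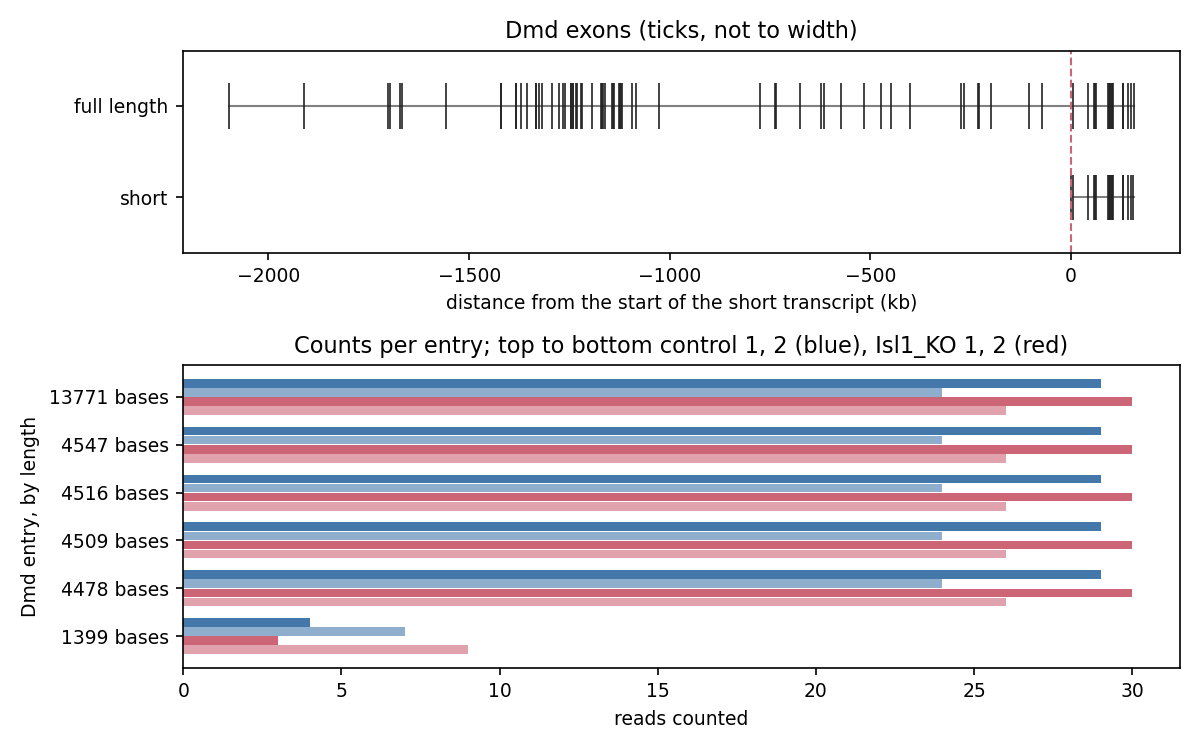
Top, exons of a full-length and a short Dmd model as ticks by distance in kilobases from the start of the short transcript (dashed line), with the full-length start 2.10 Mb upstream. Bottom, reads counted in each library for the 6 Dmd rows, in which the 13771-base row and the 4 rows of 4478 to 4547 bases have equal bars.

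With Isl1 absent, no member passed the adjusted threshold of 0.05 in edgeR, where 311 of 12715 genes did (2.45%, made up of 1.94% lower and 0.503% higher in Isl1_KO). The 6 members with enough reads to be tested all had lower means in the Isl1_KO group, with log2 fold changes from -2.14 (Dtna) to -0.19 (Dag1) and a median of -0.57 (-0.36 over the 4 members above the filter cutoff in every library), beside a median of -0.0027 over all genes tested. At an unadjusted p below 0.05, 5 of 6 were lower, where 12.2% of all genes tested were. In all 6 both Isl1_KO libraries lay below both control libraries, as in 29.0% of all genes tested. However, Dtna and Sntb1 were below the filter cutoff of 0.974 CPM in both Isl1_KO libraries and entered the test only through the control group, so neither these counts nor the median of all 6 is support for a lower level of the set. DESeq2 called no member at an adjusted p below 0.05 either, while the criteria of the study (a fold change above 1.5 with an unadjusted DESeq2 p below 0.05) selected 2, Dtna and Sgce, where 5.89% of 16855 genes were selected, with 4.57% selected as lower. Without Isl1_KO replicate 1, and likewise without replicate 2, edgeR called 4 members, Dag1, Sgcb, Sgce and Dtna, with log2 fold changes of -0.15, -0.38, -1.29 and -1.91 in the first case and of -0.24, -0.32, -0.38 and -2.39 in the second. In these fits the error came from the near-identical control pair and 49.2% and 32.5% of all genes were called. Without control replicate 1 or 2, 0.207% and 0.221% of all genes and no member were called.

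**Figure D3:**
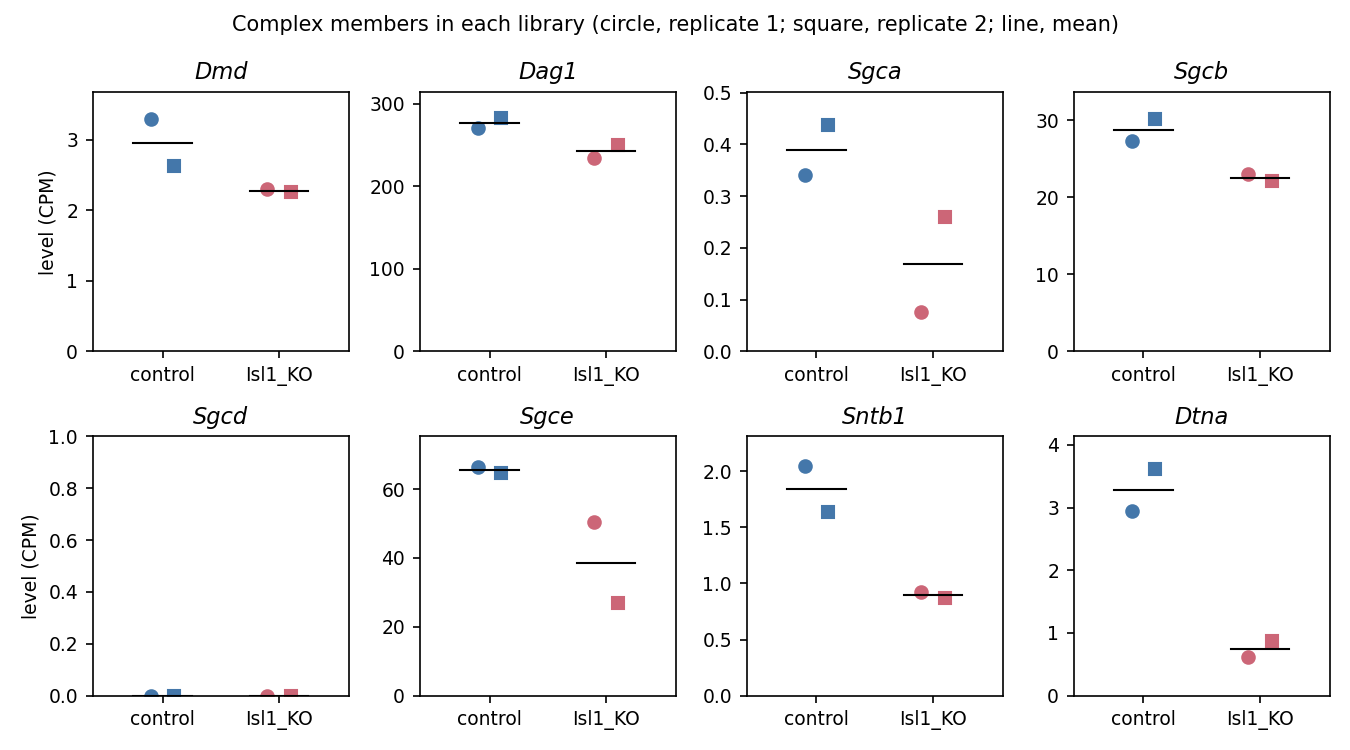
Level of each member in CPM in every library, with control in blue, Isl1_KO in red, circles for replicate 1, squares for replicate 2 and a line at the mean of the pair. Each panel has its own axis from 0, Dtna separates the groups most and Sgcd is at 0 throughout.

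Dtna was the member closest to the threshold. Its gene product α-dystrobrevin binds dystrophin and syntrophins at the inner face of the membrane. Dtna had 26 and 33 counts in the controls and only 8 and 10 counts in the deeper Isl1_KO libraries, or 2.95 and 3.61 CPM against 0.615 and 0.868 CPM. The groups did not overlap, and the fitted control level was 4.41-fold that of the mutant group. The log2 fold change was -2.14 (SE 0.34, 95% interval -3.0 to -1.28), with an edgeR p of 0.00125 and an adjusted p of 0.0507. Over 9 alternative settings with all libraries kept, it ranged from -2.20 to -2.00 with adjusted p-values from 0.0371 to 0.0574, and 4 settings put it below the threshold. Of its 8 rows, 3 share the highest sum of 77 counts, the other long rows had 75, and the rows of 3927, 2116 and 1683 bases had 47, 25 and 23. Each row had fewer counts in both Isl1_KO libraries than in both controls. Rows of the same gene share reads, so their shared direction is no added support. Dtnb, its broadly expressed relative, had 196, 183, 200 and 226 counts and a log2 fold change of -0.28 (SE 0.16, adjusted p = 0.370 in edgeR). The difference between the 2 dystrobrevin genes was not tested.

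Sntb1 (chromosome 15, 55470398-55738504, minus strand), whose product recruits channels and signalling enzymes through its PDZ domain, had 18 and 15 counts in the controls against 12 and 10 counts in the mutant libraries. Relative to depth this was 2.04 and 1.64 CPM against 0.92 and 0.87 CPM, with no overlap. The log2 fold change was -1.03 with an interval as wide as -1.88 to -0.17 (SE 0.34, adjusted p = 0.166 in edgeR). Sntb2 was measured far more precisely, with 307, 327, 360 and 328 counts, and had a log2 fold change of -0.33 (SE 0.10, adjusted p = 0.138 in edgeR). Both β-syntrophin genes had lower means in the mutant group, and neither passed the threshold.

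Dag1, the laminin receptor at the centre of the complex, was the member with the most reads. Its libraries had 2381 and 2588 counts in the control and 3046 and 2884 in the Isl1_KO group, or 270 and 283 CPM against 234 and 250 CPM. The groups did not overlap, but the gap was small, with a log2 fold change of -0.19 (SE 0.071, 95% interval -0.37 to -0.013, adjusted p = 0.195 in edgeR). The interval leaves out a 1.5-fold difference, and the value was -0.074 under a correction for transcript length. Utrn, which binds dystroglycan where dystrophin is missing, stood at 305 and 319 CPM in the control and 316 and 310 in the mutant libraries. Its log2 fold change was 0.0056 (95% interval -0.16 to 0.17, adjusted p = 0.971 in edgeR), but under the correction for transcript length it was 0.29 with an adjusted p of 0.0861. Its sign turned under 2 alternative settings and without control replicate 1 or Isl1_KO replicate 1. Dag1 exceeded Utrn per length 1.97- and 1.98-fold in the control and 1.65- and 1.79-fold in the Isl1_KO libraries.

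The 2 sarcoglycan genes that could be tested gave different patterns over the libraries. Sgcb had 241 and 276 counts in the control and 299 and 255 in the Isl1_KO libraries, or 27.4 and 30.2 CPM against 23.0 and 22.1 CPM. The mutant pair was tight and below the control pair, with a log2 fold change of -0.35 (SE 0.11, 95% interval -0.63 to -0.070, adjusted p = 0.157 in edgeR). Sgce had 586 and 591 counts in the controls, 655 in Isl1_KO replicate 1 and 310 in Isl1_KO replicate 2, or 66.5 and 64.7 CPM against 50.3 and 26.9 CPM. Both Isl1_KO libraries lay below both controls, and replicate 2 enlarged the difference. The log2 fold change of Sgce was -0.76 (SE 0.29, adjusted p = 0.202 in edgeR), and was -0.38 without replicate 2 and -1.29 without replicate 1. Sgce, an imprinted gene expressed in many tissues, exceeded Sgcb 4.83-fold per length in Isl1_KO replicate 1 and 2.69-fold in replicate 2. The same replicate had the lower summed level of smooth muscle and of fibroblast or feeder markers (744 against 2173 CPM and 645 against 1562 CPM). It was also lower in blood (152 against 273 CPM), endoderm (28.2 against 53.3 CPM) and neural markers (180 against 274 CPM). The pluripotency sum was higher in replicate 2 (49.5 against 26.0 CPM). The endothelial sum was also higher in it (372 against 334 CPM), but only through Kdr (278 against 186 CPM). Pecam1, Cdh5, Tek and Tie1 were lower in it, and Emcn had no count in either Isl1_KO library. The part of any of these cells in the Sgce level was not tested. All 5 Sgce rows, of 1683 to 1790 bases, had nearly the same counts, with sums from 2065 to 2142.

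For Dmd, the 29 and 24 counts of the control and 30 and 26 of the Isl1_KO libraries correspond to 3.29 and 2.63 CPM against 2.31 and 2.26 CPM. The mutant libraries were next to each other and below both controls, and the log2 fold change was -0.37 (SE 0.27, adjusted p = 0.449 in edgeR). The interval of -1.05 to 0.30 includes both a 1.5-fold lower level and no difference, so a change of this size was not detectable at this depth. Drp2, a dystrophin-related protein of myelinating cells, had 27, 39, 63 and 40 counts and a log2 fold change of 0.18 (SE 0.30, adjusted p = 0.753 in edgeR). Nos1, the neuronal nitric oxide synthase that syntrophin anchors in muscle, had 13, 22, 32 and 24 counts and a log2 fold change of 0.22 (SE 0.34, adjusted p = 0.736 in edgeR), and without control replicate 1 the values were -0.035 for Drp2 and -0.082 for Nos1, and with the length correction 0.34 and 0.44. In the list of 12 other genes of the complex, 6 were tested, none was called, and the median log2 fold change was -0.13.

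**Figure D4:**
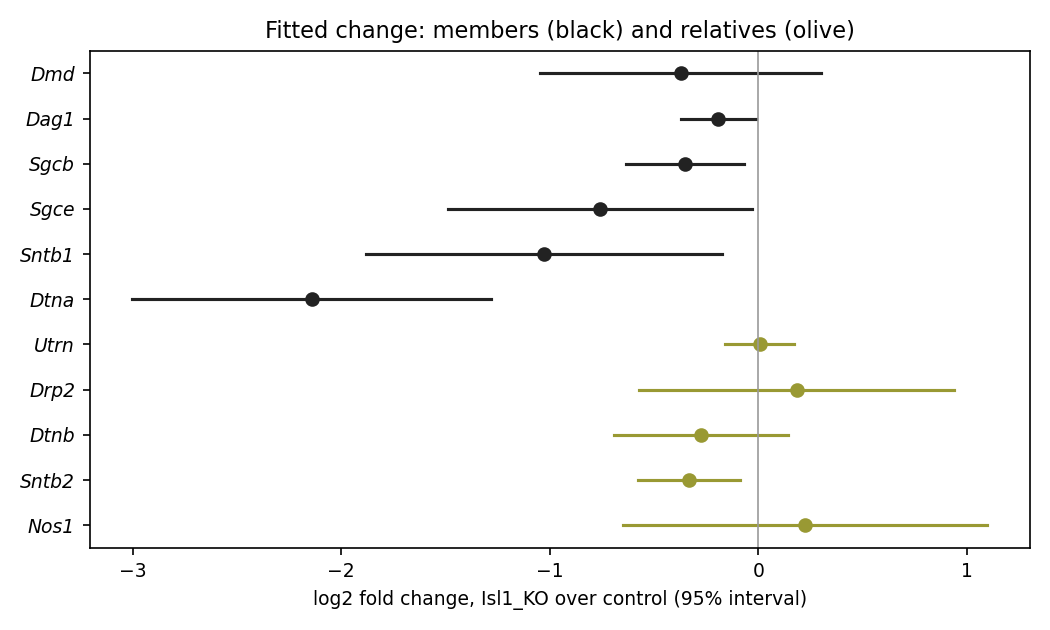
Log2 fold change of Isl1_KO over control with its 95% interval from the edgeR fit, for the 6 tested members (black) and 5 tested relatives (olive). The Dtna interval, -3.0 to -1.28, lies farthest below 0, and the Utrn interval, -0.16 to 0.17, is the narrowest around 0.

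In the companion lists around the complex, Lama2 was the only gene called. Of the 8 matrix ligands, proteins outside the cell that bind dystroglycan or lie beside it, 7 were tested, with a median log2 fold change of -0.35, and only Lama2 was called, where 1.94% of all genes tested were called lower. Lama2, encoding the laminin α2 chain of the muscle basement membrane, had 73 and 84 counts in the controls and 34 and 19 counts in the mutant libraries. The level in both mutant libraries was below that of both controls, at 8.74 ± 0.64 CPM against 2.13 ± 0.68 CPM (SD, n = 2), and the log2 fold change was -2.02 (SE 0.27, adjusted p = 0.0359 in edgeR). Without control replicate 1 or 2 the log2 fold change was -2.10 and -1.95 and the edgeR adjusted p 0.365 and 0.382. All 17 glycosylation genes, which build the laminin-binding sugar of α-dystroglycan, were tested and none was called, with a median of -0.011. All 18 genes of the costamere and membrane skeleton, which anchor the contractile apparatus beside the complex, were also tested with none called and a median of -0.21. The one with the most reads, Flna, encoding the actin crosslinker filamin A, had a log2 fold change of -0.16 (SE 0.19, adjusted p = 0.648 in edgeR), and its sign turned under a correction for transcript length.

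**Figure D5:**
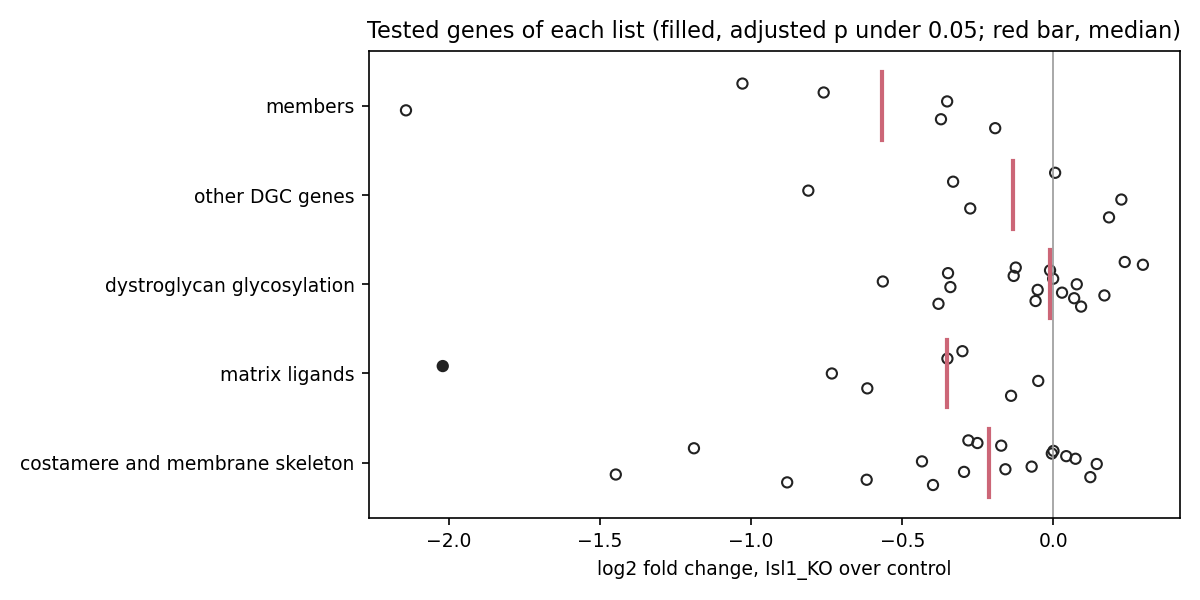
Log2 fold change of every tested gene in the members and 4 companion lists, with open circles for genes above an adjusted p of 0.05, a filled circle for the gene below it (Lama2) and a red bar at each median. The member median of -0.57 includes Dtna and Sntb1, which passed the filter only through the control group, and is -0.36 without them, beside -0.35 in the matrix ligands, and points are offset vertically for legibility.

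Among the 3 genes whose levels ran closest to those of Dtna were Cacna1c and Phlda2. Of 10748 genes ranked by Euclidean distance between log2 CPM values centred on each gene's mean over the 4 libraries, they lay at distances of 0.259 and 0.379, a description that rests on 4 points. Cacna1c, the pore subunit of the L-type calcium channel, was at 23.6 and 29.3 CPM in the control and 5.07 and 5.81 CPM in the Isl1_KO libraries. Phlda2, an imprinted gene best known from the placenta, was at 112 and 109 CPM against 18.8 and 23.7 CPM. Both fell, with edgeR adjusted p-values of 0.00902 and 0.00295 and log2 fold changes of -2.28 (SE 0.18) and -2.38 (SE 0.12). As they were chosen for their likeness to Dtna, their fold changes are a description and no support for that of Dtna. Without control replicate 1 or 2, Cacna1c was no longer called (edgeR adjusted p = 0.0823 and 0.108).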

How the data were processed

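RNA-Seq of 4 libraries (2 control, 2 Isl1_KO) was used. Per the study's methods, the authors mapped TruSeq Stranded mRNA reads to mm9 with STAR and counted them over the exons of each RefSeq transcript with HOMER without regard to strand, so transcripts of 1 gene share reads. The deposited table holds a count and, for the same library, an RPKM value (made by the authors with edgeR) for each of 31507 transcripts, besides transcript length. The authors' DESeq2 columns of log2 fold change, p-value, mean signal and test score were deposited in the same table and were not used. All per-sample columns could be matched to samples.

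For each of 20701 symbols the row with the highest summed count was kept. Counts were tested with edgeR 4.0.16 (TMM, filterByExpr, two-sided quasi-likelihood F test, R 4.3.3), and p-values were adjusted by the Benjamini-Hochberg method over 12715 genes. RPKM values were used only to compare levels between genes. The filter required about 0.974 CPM in at least 2 libraries. In all, 15 alternatives, DESeq2 1.42.0 among them, were tried, and their effect is given below. The fit was tested on simulated counts, where the share of false calls among all calls exceeded the nominal level, so calls near the threshold are less certain than their adjusted p-values state. Members and gene lists were chosen with earlier results of these data known. Named genes are Isl1, the 8 members, the 12 other genes of the complex, from each further list the genes past the threshold or else the one with most reads, and the 3 genes most like the member with the smallest p-value, and some genes that these rules name are not reported here. Libraries within a group are the replicates, and p-values measure only the spread between these libraries. Intervals and floors cover counting error or the fitted spread only. The replicate numbers did not pair the libraries (correlation of deviations between same-numbered libraries 0.0153 over 12715 genes). Promoter sequences came from RefSeq (GRCm38.p6) and were placed on mm9 by exact match, and gene models from GENCODE vM1.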

Additional observations from a re-analysis of the deposited data

How the results depend on the processing

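Each of the 6 tested members kept a log2 fold change below 0 in every alternative run that gave it a value. Dmd, Dag1, Sgcb and Sntb1 were called in no run with all libraries kept. All runs drew on the same libraries, and Dtna and Sntb1 passed the main filter only through the control group. The shared sign is therefore no support for a lower level of the set. The count of members called was 2 by the study's criteria (Sgce, -0.76, and Dtna, -2.15). It was 1, Dtna, without a filter (-2.13) and with the longest row per gene (-2.20). With the replicate block it was 1, Dtna again (-2.14, or -2.00 with a length offset as well), although the numbers do not pair the libraries. Over all genes, 604 of 16855 were called by DESeq2, 993 of 16855 by the study's criteria and 492 of 16855 without a filter. With the longest row 309 of 12706 were called, with the replicate block 454 of 12715, and with the block and length offset 588 of 12715. Among the matrix ligands 2 were called by DESeq2 and 2 by the study's criteria (Lama1 beside Lama2). In the costamere list, DESeq2 called 2 (Ank3 and Synm), the study's criteria 3 (also Des), no filter 1 (Ank3), the replicate block 2 (Ank3 and Des) and the block with length offset 3 (also Krt19), and these names were chosen after their values were seen. The log2 fold change of Utrn was -0.00040 with upper-quartile factors and -0.0012 when every library had to reach 10 counts, a filter under which Dtna had no value, and it was 0.29 with the length offset, alone or with the replicate block. The length offset also gave -0.074 for Dag1, 0.34 for Drp2, 0.44 for Nos1 and 0.022 for Flna. Leaving out 1 library at a time, with the lone sample assumed to vary like the other group, gave 0 to 4 members, 27 to 6350 genes in all, 0 to 2 other genes of the complex, 0 to 6 glycosylation genes, 0 to 6 matrix ligands and 0 to 14 costamere genes. The log2 fold changes then ranged from -0.24 to -0.15 for Dag1, -0.42 to -0.28 for Sgcb, -1.29 to -0.38 for Sgce and -2.39 to -1.91 for Dtna, and from -0.027 to 0.038 for Utrn, -0.083 to 0.44 for Drp2, -0.082 to 0.62 for Nos1 and -0.47 to 0.096 for Flna. Depth limited Dmd, Sntb1 and Dtna, at 8 to 33 counts a library. Sgca, at 1 to 4 counts, was fitted only without the filter (edgeR adjusted p = 0.561) and in DESeq2, called in neither, and Sgcd, at 0 counts, in no setting.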
